A study of Drosophila melanogaster with 4 samples.

Results

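The regions described here are the wide H4K16ac domains of the Drosophila melanogaster X chromosome. H4K16ac is histone H4 acetylated on a lysine of its tail. A domain was any enriched X region of 10 kb or wider in the authors' combined list, with the last region trimmed to the stated end of the X. The domains were thus chosen by their measured width, which is not reported as a finding. The rule gave 220 domains, out of 1490 enriched X regions and 5728 enriched regions on all sequences. Enriched regions are called clusters below, and X clusters under 10 kb are called narrow clusters. The study held 2 H4K16ac ChIP samples and 2 Input samples of unprecipitated chromatin from heads of wild-type Oregon-R flies, labelled as mixed adults. Both groups shared strain, genotype and tissue, no sex is stated, and heads were sieved in bulk from population cages. In such bulk chromatin, a domain present in few cells and a weak domain present in every cell cannot be told apart. The 3 region lists used were 1 for each ChIP replicate and the combined list, while Input files were not analysed here. The lists give positions on FlyBase release 5 and a score for each cluster. They give no read numbers, so depth is unknown.

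In Drosophila, this acetylation is placed by MOF, a subunit of the MSL dosage compensation complex. In males the complex, which also carries the roX RNAs, is known to enter the X at particular sites and to spread into active genes nearby, where the mark covers gene bodies. Elsewhere, and in females, the mark is known from active promoters, where MOF acts in the NSL complex.

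The 220 domains made up 14.8% of the X clusters and held 79.8% of the length in X clusters. They spanned 12.49 Mb, or 55.7% of the 22.4 Mb of the X. Both replicates gave the same picture when their own clusters of 10 kb or wider were taken. Replicate 1 held 204 such X clusters over 48.3% of the X, and replicate 2 held 220 over 47.6%, a mean of 48.0% ± 0.496 (SD, n = 2). The combined list thus put more of the X into domains than either replicate did, by more than the spread between them. No test was made, because the width that chose the domains came from the same data.

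Widths ran from 10.1 kb to 331 kb, with a median of 32.4 kb and quartiles of 16.03 and 75.02 kb. Wide X clusters had a median width of 33.3 kb in replicate 1 and 33.7 kb in replicate 2. There were 69 domains of 10 to 20 kb, which held 7.54% of the domain length. A further 71 were 20 to 50 kb wide, 43 were 50 to 100 kb wide and 31 were 100 to 200 kb wide. The 6 domains of 200 kb or wider held 13.1% of the domain length. The 38 widest domains held 50% of it. Length was therefore concentrated in few domains, while 140 of the 220 domains were under 50 kb wide.

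The 10 kb limit fell within a continuous run of widths. The 5 domains just inside it were 10097 to 10287 bp wide, with scores of 0.97, 0.60, 0.62, 0.69 and 1.08 in order of width. The 5 X clusters just outside it were 9582 to 9852 bp wide, with scores of 0.68 to 0.99. Both sets were met by 1 or 2 clusters of each replicate per region.

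**Figure D1:**
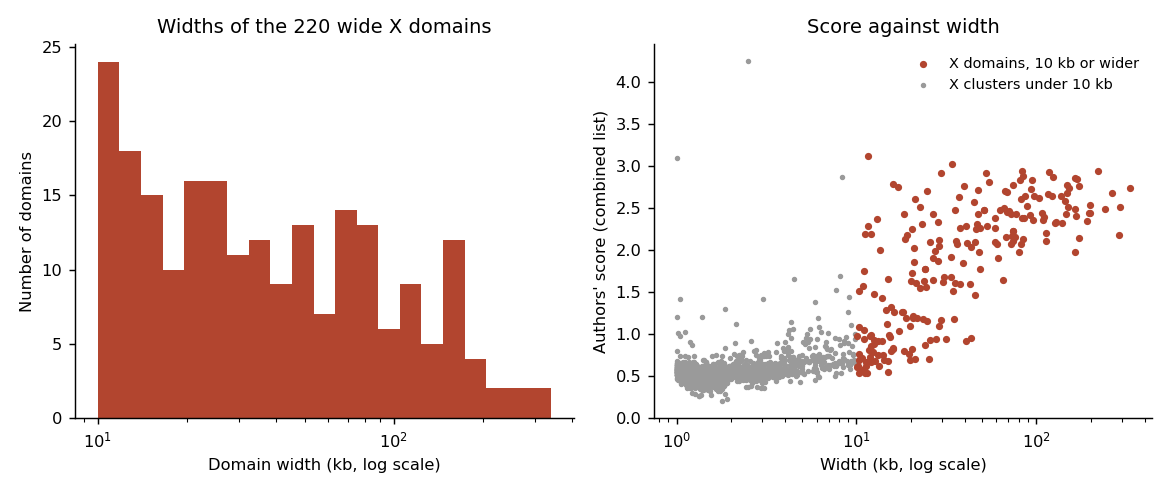
Left, number of domains by width on a log scale in kb. Right, the authors' score in the combined list against width on a log scale, for the 220 domains and the 1270 narrow X clusters, each point being 1 cluster. Scores of wider domains reach higher, and every domain of 50 kb or wider has a score of at least 1.64, while most narrow clusters lie near the median of 0.54.

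The score is a value the authors gave each cluster. Its scale is not stated and the lists were not brought to a common one. Scores of different lists stand side by side as values, and no conclusion is drawn from differences in level between lists. Domains had a median score of 2.07 in the combined list, and narrow X clusters had one of 0.54, a difference of 1.53. Within the replicate lists this difference was 1.57 and 1.44 (mean 1.51 ± 0.088, SD, n = 2). The spread between replicates was small beside it, on lists without a common scale. The 95th percentile of the narrow X scores was 0.81, and 191 of the 220 domains scored above it. A score of 2 or more was held by 116 domains and 3 narrow X clusters.

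Score and width went together among the domains. The median score was 0.93 for domains of 10 to 20 kb and 1.84 for those of 20 to 50 kb. It was 2.42 for domains of 50 to 100 kb, 2.48 for 100 to 200 kb and 2.60 for 200 kb or wider. The gain was thus mostly below 50 kb, with little difference between the wider classes. Spearman's rho between score and width was 0.73 across the 220 domains. It was 0.64 across the 204 wide X clusters of replicate 1 and 0.67 across the 220 of replicate 2. These values describe domains of 1 chromosome that share their libraries, and no p-value is attached to them.

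In the combined list the domain scores fell into a lower and a higher group with fewer domains between. A score under 1 was held by 50 domains, of which 23 lay between 0.5 and 0.75 and 27 between 0.75 and 1. Between 1.25 and 1.5 there were 8 domains, and between 2.25 and 2.5 there were 41. This describes the combined list alone. Wide X clusters of replicates 1 and 2 numbered 0 and 0 between 0.5 and 0.75, and 5 and 13 between 0.75 and 1. Between 1.25 and 1.5 they numbered 16 and 12, and between 2.25 and 2.5 they numbered 23 and 51. Few wide X clusters of the replicates thus scored below 1. They are not the same set as the domains, since 46 domains held no cluster of 10 kb or wider in either replicate. The lists also have no common scale, so these counts do not show whether the replicates hold a lower group. Set apart at a score of 1.5, a limit chosen after the scores were seen, 72 weak domains held 9.94% of the domain length and 148 strong domains held 90.1%. Weak domains were at most 45.4 kb wide, with a median of 14.7 kb, and strong domains had a median of 59.0 kb.

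The highest scores were not confined to the widest domains. The highest was 3.12, in an 11.6 kb domain from 710957 to 722592 that was 1 unbroken cluster in each replicate. Its scores were 3.24 in replicate 1 and 3.02 in replicate 2. The next was 3.03, in a 34.2 kb domain from 21468913 to 21503070, also unbroken in both replicates. This domain lay alone, with 200139 bp before it and 340389 bp after it free of other domains. The remaining 3 of the 5 highest were 82.9, 117 and 220 kb wide, with scores of 2.92 to 2.94. The 5 lowest scores, 0.53 to 0.56, belonged to domains of 10.3 to 15.0 kb. Those 5 were met by 1 to 5 clusters of a replicate, with replicate scores of 0.63 to 0.91.

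Replicate scores of a domain were taken as the mean over the clusters within it, weighted by overlap. They ranged from 0.71 to 3.24 in replicate 1 and from 0.63 to 3.02 in replicate 2. The order of the domains by these scores was nearly the same in both, with a Spearman's rho of 0.98 across 220 domains. Uncovered parts of a domain do not enter the scores, so in poorly covered domains they describe a small part. The domain from 16881844 to 16892949 scored 0.91 in replicate 1 from clusters over 16.4% of it.

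Domains were found along the whole X. The first ran from 19038 to 52738, and the last from 22404551 to the end of the sequence. Among the 22 full bins of 1 Mb, the share in domains ran from 32.0% between 21 and 22 Mb to 80.5% between 11 and 12 Mb, with a median of 61.3%. Bins from 1 to 2 Mb (78.0%) and from 16 to 17 Mb (75.01%) were also dense. Bins from 3 to 5 Mb (37.8 and 36.7%), from 14 to 15 Mb (36.2%) and from 20 to 21 Mb (37.7%) were sparse. The partial bin from 22 Mb on held 7.05%. Dense and sparse bins were mixed along the chromosome, with sparse ones side by side from 3 to 5 Mb and from 20 to 22 Mb. The left and right portions of the X, split at its midpoint, were covered to 56.7% and 54.7%.

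The bins were alike in the replicates. Wide X clusters covered 73.5% of the bin from 11 to 12 Mb in replicate 1 and 74.5% in replicate 2. They covered 28.6% and 29.7% of the bin from 21 to 22 Mb. Spearman's rho between the replicates was 0.98 across the 22 full bins, which share their libraries. A dense bin did not need many domains. The bin from 11 to 12 Mb held 8 domains with a median width of 88.2 kb, while that from 0 to 1 Mb held 16 with a median of 27.6 kb and was covered to 63.4%.

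On a finer scale most stretches of the X were partly filled. Of 224 windows of 100 kb, 51 lay to 90% or more in domains, 73 to between 50 and 90%, 71 to less than 50% but above 0, and 29 held no domain. The 29 empty windows held no wide X cluster in either replicate. In the replicate lists 36 and 33 windows were filled to 90% or more and 36 and 35 were empty.

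Neighbouring domains lay at very uneven distances. The 219 gaps ran from 14 bp to 426 kb, with a median of 12.2 kb and quartiles of 2.35 and 65.1 kb. The standard deviation of the gap widths was 1.53 times their mean. The median gap between wide X clusters was 20.3 kb in replicate 1 and 15.45 kb in replicate 2 (mean 17.9 ± 3.43 kb, SD, n = 2). The combined value was lower than in either replicate.

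Short gaps were common, and a single replicate cluster seldom crossed one. There were 28 gaps under 0.5 kb and 24 of 0.5 to 2 kb. Only 1 of all 219 gaps was bridged by a single replicate cluster. It was a gap of 128 bp that a cluster of replicate 2 crossed, and replicate 1 bridged 0. Of 440 domain edges, the outermost replicate cluster ended inside the domain at 387 in replicate 1 and 412 in replicate 2. Crossings thus had little room to occur, and their count does not measure how well the gaps repeat. The 3 smallest gaps were 14 bp at 15985751 to 15985764, 18 bp at 9096478 to 9096495 and 26 bp at 10480124 to 10480149. The domains beside the first scored 1.86 and 2.00, those beside the second 2.48 and 2.84, and those beside the third 0.77 and 2.47. Domains on either side of a short gap could thus differ widely in score.

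Closely spaced domains formed runs. Joining domains less than 2 kb apart gave 39 runs of 2 or more that took in 91 of the 220 domains. The widest such run spanned 398 kb from 12926216 to 13323920 and held 2 domains. The run with the most domains held 5 within 68.7 kb from 12634585 to 12703309, with scores from 0.98 to 2.36. At a distance of 10 kb, 166 domains fell into 62 runs, and 54 domains stayed single. The widest run then spanned 604 kb.

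The 33 gaps of 100 kb or more held 60.7% of the length between domains. The 3 largest were 426 kb from 21952846, 340 kb from 21503071 and 314 kb from 7239812. A total of 19 domains had 50 kb or more free of other domains on both sides. Their median width was 34.2 kb and their median score 2.09, close to the medians of all domains. The widest domain of the X, 331 kb, was among them.

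**Figure D2:**
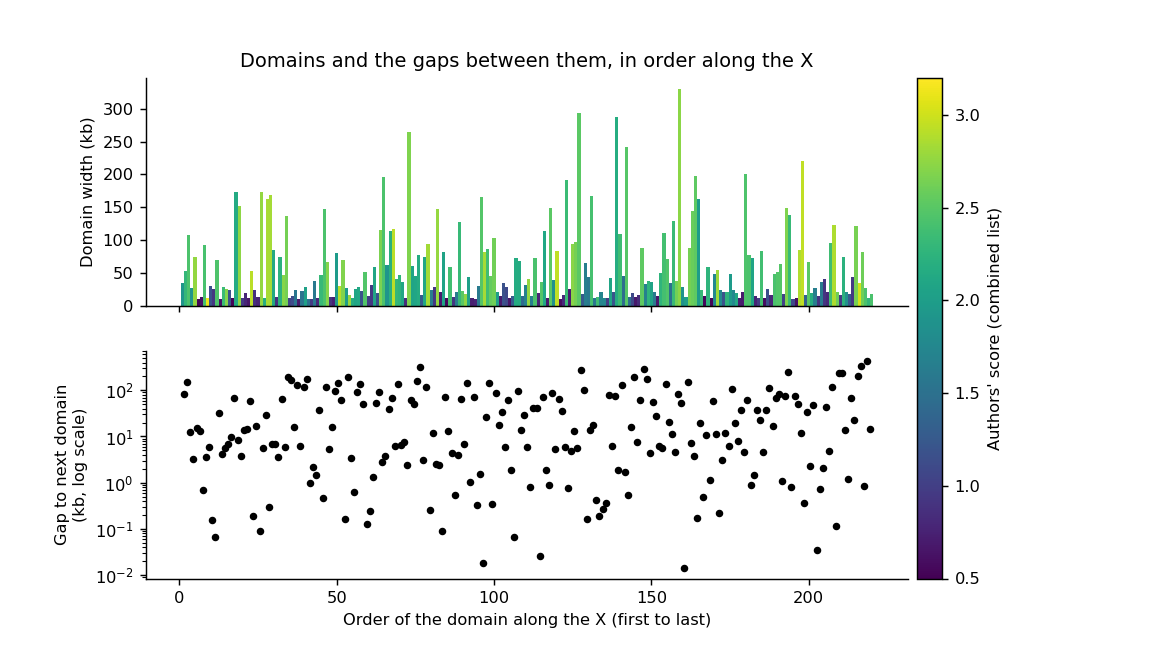
Top, width in kb of each of the 220 domains in their order along the X, with bars coloured by the authors' score in the combined list. Bottom, gap to the next domain in kb on a log scale, in the same order. Wide domains of high score stand among short ones of low score, and gaps from 0.014 to 426 kb follow each other without a steady spacing.

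Narrow clusters lay in the larger gaps. Every gap of 10 kb or more held at least 1 of them in the combined list, and all 28 gaps under 0.5 kb held 0. Only clusters lying wholly within a gap were counted. A short gap has little or no room for one, so the 0 in the shortest gaps is not read as a result. In gaps of 10 to 50 kb, narrow clusters covered 64.6% of the length. This share was 48.2% in gaps of 50 to 100 kb and 19.3% in gaps of 100 kb or more. In the replicate lists the same gaps of 10 to 50 kb were covered to 30.6 and 32.7%. The narrow cover of these gaps was thus greater in the combined list than in either replicate.

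**Figure D3:**
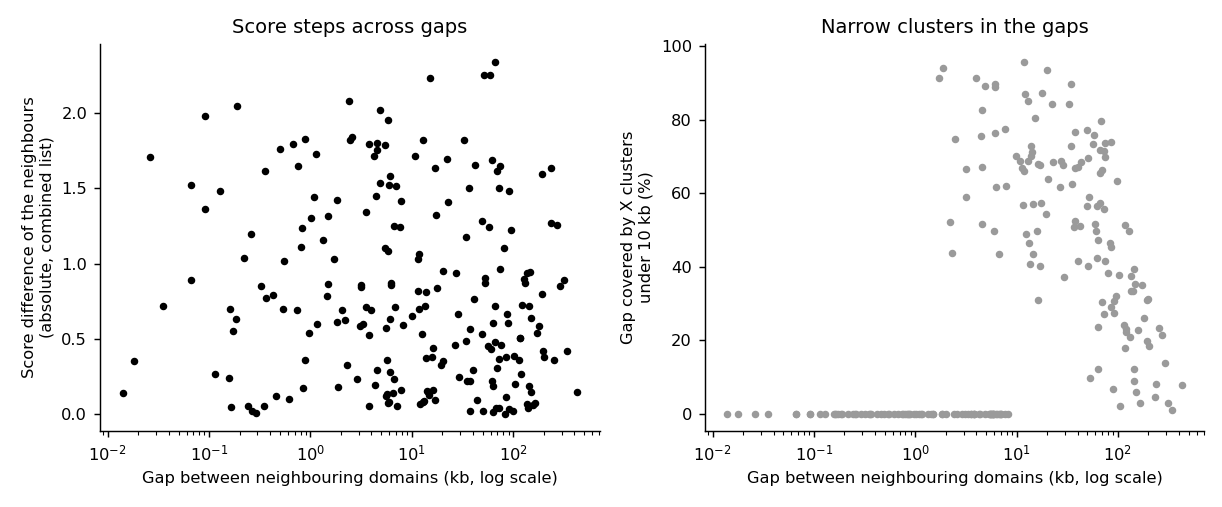
Each point is 1 of the 219 gaps between neighbouring domains, placed by its width in kb on a log scale. Left, absolute difference in the authors' score between the domains beside the gap. Right, percent of the gap covered by narrow X clusters in the combined list. Score differences reach 2.04 at gaps under 0.5 kb. Narrow cover is 0 in most gaps under 2 kb, which have little room for a cluster, and low again in the widest.

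Every domain was met by clusters of both replicates. All 220 were overlapped by at least 1 bp in replicate 1 and in replicate 2. Over all 5728 combined clusters the shares so met were 61.6% in replicate 1 and 67.8% in replicate 2, and over the 1270 narrow X clusters they were 37.2 and 36.5%. A wide region has more room to be met, and the combined list was made from the same samples, so these shares are descriptions only. In the other direction, all 204 wide X clusters of replicate 1 and all 220 of replicate 2 overlapped a domain.

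Coverage within the domains was high in both replicates. Replicate clusters covered 95.3% of the summed domain length in replicate 1 and 95.1% in replicate 2 (mean 95.2% ± 0.128, SD, n = 2). The median domain was covered to 95.4% and 94.9%. Of the domain length, 92.4% was covered in both replicates at the same positions, and 2.11% lay in neither. Replicate 1 alone covered 2.82% and replicate 2 alone 2.64%.

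Coverage went with width. In the class from 10 to 20 kb the median domain was covered to 80.5% in replicate 1 and 81.4% in replicate 2. From 20 to 50 kb these values were 94.3 and 93.2%, and from 100 to 200 kb 98.7 and 98.4%. No domain of 50 kb or wider was covered to less than 88.2% in either replicate. Strong domains, with a score of 1.5 or more, had medians of 97.7 and 96.9%, and weak domains had medians of 78.9 and 78.7%. Across domains the combined score and the mean coverage had a Spearman's rho of 0.81 (n = 220).

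The least covered domains were short and weak. The lowest mean, 19.0%, was found from 18037064 to 18048052, a domain of 10989 bp with a score of 0.59. Replicate 1 covered 26.0% of it with 2 clusters, and replicate 2 covered 11.98% with 1. The domain from 11145522 to 11155649 was covered to 20.1% in replicate 1 and 43.7% in replicate 2. These were the 2 domains covered to less than 50% in both replicates. The domain from 1474888 to 1487011 was the one on which the replicates differed most among the 5 least covered, at 73.4% in replicate 1 and 16.9% in replicate 2.

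A cluster of 10 kb or wider was not present in every domain when the replicates were taken alone. Such a cluster lay in 161 domains in both replicates and in 46 domains in neither. The 46 had a median width of 12.1 kb and a median score of 0.75, and the widest was 25.4 kb. Of these, 43 had a score under 1.5. The 3 with higher scores were 11.1 to 11.5 kb wide and were covered to at least 85.46% in each replicate. They lay from 1831127 to 1842320, from 12679798 to 12690857 and from 22378420 to 22389950, with scores of 2.18, 1.75 and 2.28. In each of these 3 the longest replicate cluster was 6532 to 9917 bp wide, under the limit.

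Most domains were broken into pieces in the replicates. A domain held a mean of 2.33 clusters in replicate 1 and 2.65 in replicate 2 (mean 2.49 ± 0.228, SD, n = 2). In replicate 1, 79 domains (35.9%) were met by exactly 1 cluster, and in replicate 2, 57 (25.9%) were, a mean of 30.9% ± 7.07. Pieces numbered 5 or more in 22 domains of replicate 1 and 24 of replicate 2. The largest numbers were 9 and 12. Replicate 2 split the domains further than replicate 1 did, with more pieces in 93 domains against 48 with more in replicate 1.

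The replicates matched only in part in which domains were broken. In 35 domains both replicates had 1 unbroken cluster, and in 119 both had 2 or more. Replicate 1 alone was unbroken in 44 and replicate 2 alone in 22. The number of pieces was equal in 79 domains, and Spearman's rho between the replicates was 0.54 (n = 220). The 35 unbroken domains had a median width of 28.7 kb and a median score of 2.36. The 119 broken in both had medians of 37.8 kb and 1.68. The widest domain unbroken in both ran from 2034557 to 2203611, 169 kb, and was covered to 99.98% in replicate 1 and 99.46% in replicate 2. The domain from 1261074 to 1412972, 152 kb, was likewise 1 cluster in each replicate.

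**Figure D4:**
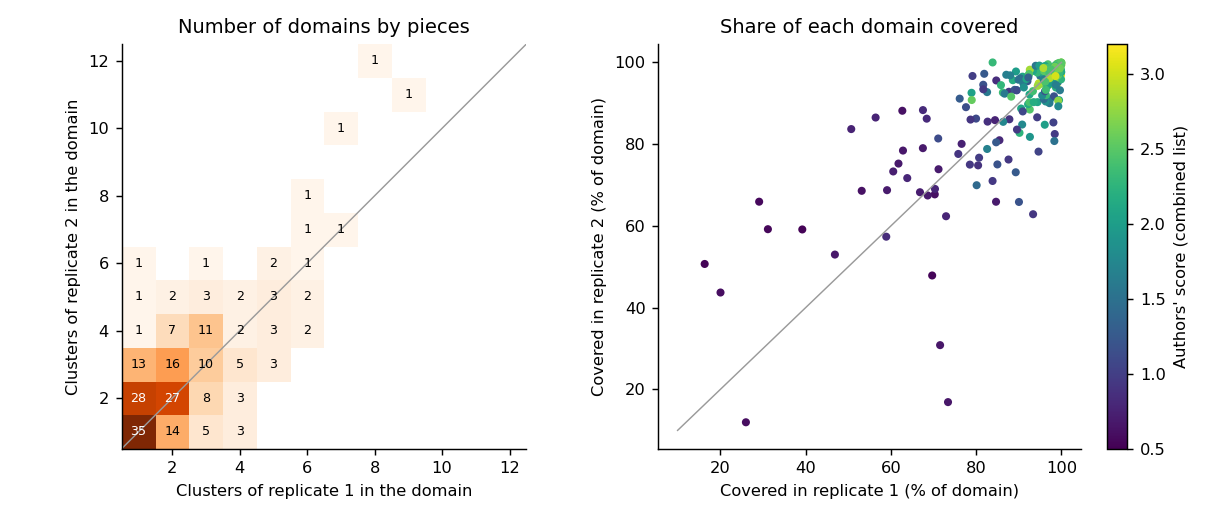
Left, number of domains by how many clusters of replicate 1 (x axis) and replicate 2 (y axis) they hold, with counts in the cells and a line of equality. Right, percent of each domain covered in replicate 1 against replicate 2, coloured by the authors' score in the combined list. The cell with 1 cluster in each replicate holds 35 domains, and domains covered to less than 50% have low scores.

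Wider domains held more pieces, but fewer breaks for their length. The mean number of pieces was 2.09 in replicate 1 and 2.16 in replicate 2 for domains of 10 to 20 kb, and 3.50 and 5.33 for those of 200 kb or wider. Breaks between pieces numbered 7.97 and 8.50 per 100 kb of summed length in the narrowest class and 0.917 and 1.59 in the widest. The longest piece usually dominated. It held a median of 83.1% of the domain in replicate 1 and 76.7% in replicate 2, and at least 50% in 177 and 168 domains.

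The most divided domains held 20 clusters over both replicates. One, from 12926216 to 13213083, held 8 in replicate 1 and 12 in replicate 2. Its longest pieces of 88951 and 81323 bp held 31.0 and 28.3% of its 287 kb. The other, from 15317643 to 15446629, 129 kb, held 9 and 11. The domain from 1079431 to 1252851, 173 kb, held 7 and 10. The domains from 1651886 and from 16589575 completed the 5 most divided, with 7 and 7 and with 6 and 8 pieces. All 5 were still covered to between 91.99 and 98.69% in each replicate. Their scores were 1.98 to 2.76, so breaking up was not limited to weak domains.

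The widest domains differed in how they held together. The widest, from 15573663 to 15904202, had 2 pieces in replicate 1 and 4 in replicate 2, and its longest pieces held 98.0 and 95.8% of it. The domain from 11643913 to 11937175 had 3 and 4 pieces. Its longest piece held 78.0% in replicate 1 and 49.3% in replicate 2. The domain from 6522255 to 6787167 had 6 and 7 pieces, the longest holding 86.5 and 59.4%. The domain from 13499383 to 13740444 was 1 piece in replicate 1 that covered 99.97% of it, and 2 in replicate 2.

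Pieces of 1 domain were unequal in score. In replicate 1 the longest piece had the highest score in 126 of 141 broken domains, and in replicate 2 in 140 of 163. The longest piece scored above the median of the other pieces by a median of 1.05 in replicate 1 and 1.00 in replicate 2. Score steps of 1 or more were found at 35.5 and 32.7% of the breaks.

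The breaks were short. Inside domains replicate 1 had 293 breaks with a median of 434 bp, and replicate 2 had 364 with a median of 492 bp. They were under 500 bp in 156 and 184 cases and 2 kb or more in 29 and 39. The widest measured 6335 and 5157 bp, and in 1 case in replicate 1 the pieces abutted with 0 bp between them. All breaks together took 1.88 and 2.41% of the domain length.

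Breaks coincided in part between the replicates. Of the breaks of replicate 1, 128 (43.7%) overlapped a break of replicate 2, and 126 (34.6%) of those of replicate 2 overlapped one of replicate 1. The shared length was 70.6 kb, which is 30.1% of the break length of replicate 1 and 23.4% of that of replicate 2. In the other replicate 145 breaks of replicate 1 and 207 of replicate 2 were fully covered by clusters. Breaks lay near an end in part of the cases. Of them, 32.1 and 32.7% had their midpoint in the outer 10% of the domain on either side, which makes up 20% of the length.

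Domain edges in the replicates lay mostly just inside the combined edges. Over the 440 edges, the outermost replicate cluster ended a median of 228 bp inside the domain in replicate 1 and 283 bp inside in replicate 2. It lay within 500 bp of the combined edge at 273 and 270 edges, and beyond it at 52 and 25. In replicate 1, 58 edges were off by more than 2 kb, and in replicate 2, 44. The replicate edges were a median of 294.5 bp from each other. The farthest was the right edge of the domain from 5186486 to 5237546, where a cluster of replicate 2 ran on for 14827 bp across the 128 bp gap into the next domain. Of the unfilled domain length, 60.4% in replicate 1 and 51.0% in replicate 2 lay at the edges and the rest in breaks.

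**Figure D5:**
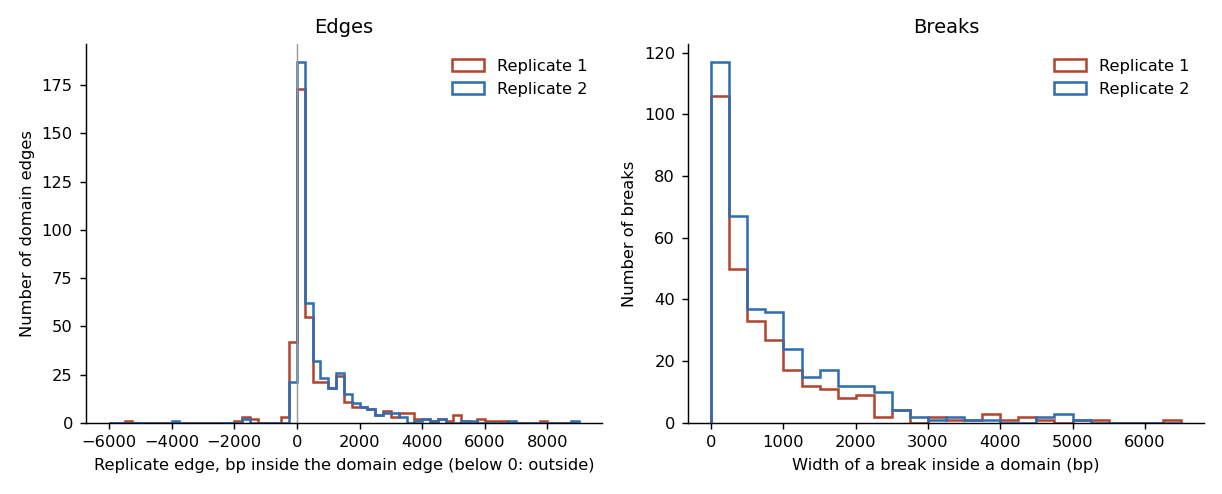
Left, distance in bp of the outermost replicate edge inside the combined domain edge, for the 440 edges of each replicate, with 1 edge of replicate 2 at 14827 bp outside not drawn. Right, widths in bp of the breaks between replicate clusters inside domains. Both replicates peak within 250 bp inside the domain edge, and breaks are most often under 500 bp.

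The next X cluster was often close to a domain. Over 439 domain sides with a further cluster, the median distance was 814 bp, and 168 sides (38.3%) had one within 500 bp. At 56 of these sides the neighbour was another domain, and at 112 it was a narrow cluster, with a median width of 2624 bp. A short gap between domains, or a narrow cluster close to both of its neighbouring domains, was counted from both sides. The narrow neighbours scored lower than the domain at 107 of 112 sides. Their median score was 0.57, close to the 0.54 of all 1270 narrow X clusters. Many domains thus had a short cluster of lower score close by. Since 191 of 220 domains scored above the 95th percentile of narrow X scores, a lower score is not particular to these neighbours.

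Clusters of similar width were rare off the X. The combined list held 6 of 10 kb or wider on other sequences. Of these, 5 lay on 2L, 2R and 3R, which with 3L held 4063 clusters in all. They were 10.4 to 17.9 kb wide with scores of 0.64 to 1.01, and so lay within the range of the weak X domains. The sixth lay on XHet, the separate sequence of X heterochromatin, from 45313 to 91509. It was 46.2 kb wide with a score of 2.39, and was 1 cluster in each replicate that covered 97.4 and 98.8% of it. By width and score it lay among the strong X domains.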

How the data were processed

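H4K16ac ChIP-seq was made from fly head chromatin in 2 ChIP replicates, each labelled with an Input sample. The submitters' processing notes name Bowtie 0.12.7, a short-read aligner. The authors deposited called regions with a score on FlyBase release 5, per the file headers. Neither the score's scale, nor the region caller and its thresholds, nor the way the combined list was made is stated in the sources used here. Depth is unknown, so no counting interval is given. Nothing in the labels states separate fly collections, so the spread between replicates may be technical.

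Depleted regions were set aside (0 on the X) and the last X cluster was trimmed by 370 bp. Overlap of 1 bp counted. Regions named are the 5 most extreme by width, score, pieces and coverage, the 3 smallest and largest gaps, the first and last domain and those beside the limit. Others were chosen after their values were seen. Members and measures were chosen with earlier results of these data known. No test was run, since no measure was independent of that choice. No gene annotation or sequence of this build was used here, so genes under the domains are not analysed here. The interval procedures were tested on simulated domains. The software was pandas 2.3.3, numpy 2.4.6 and scipy 1.17.1 under Python 3.11.15, with figures by matplotlib 3.10.9. Alternatives were other width limits, merged clusters, higher scores, a stricter overlap and single replicates.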

Additional observations from a re-analysis of the deposited data

How the results depend on the processing

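With a minimum width of 5 kb there were 343 domains over 59.6% of the X, with a median width of 14.99 kb, a median gap of 5.75 kb and a median score of 1.12. They lay 0.59 above the narrower clusters, 39.1% were unbroken, and the median coverage was 88.7%. With a minimum of 20 kb the covered share was 51.5%, the median width 54.7 kb, the gap 46.5 kb, the score 2.29, the score difference 1.74 and the coverage 96.9%. Merging clusters less than 500 bp apart gave 59.8%, 37.4 kb, a score of 1.85, a difference of 1.31 and a coverage of 90.7%. Merging those less than 2 kb apart gave 67.6%, 42.9 kb, a gap of 8.32 kb, a score of 1.61, a difference of 1.07, 39.3% unbroken and a coverage of 83.9%. Taking domains from 1 replicate list gave 47.6 to 48.3% of the X, median widths of 33.3 to 33.7 kb, gaps of 15.45 to 20.3 kb and scores of 2.19 to 2.40. In all, 32 of 58 values moved by over 1 SD of the replicates (or, for the number of domains, by over 1.5 times). Of these measures only the score difference could take either sign, and it stayed positive in every alternative. For scores and score differences, the SD and the single-replicate values come from lists without a common scale. The width limit and merging redefine the domains by construction, and the cause of the other shifts was not tested. The 50% of combined clusters with the highest score held all 220 domains. No paired analysis was possible because the values come from no test between groups and the region lists analysed here belong to the ChIP group alone. Depth is unknown, so the share of weak domains that deeper sequencing would join or split cannot be given.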

Other observations

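Scores and widths of neighbouring domains were nearly uncorrelated. Across the 219 pairs of neighbouring domains, at gaps of any width, Spearman's rho between their scores was 0.078 and that between their widths was 0.031. The median absolute score difference was 0.82 for domains less than 2 kb apart and 0.52 for those 50 kb or more apart. At the 28 gaps under 500 bp it was 0.74, with a range of 0.011 to 2.04, and 10 of them had a step of 1 or more.

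The largest score differences between neighbours involved short domains. The domain from 10996218 to 11079110 scored 2.94, and the next, 66411 bp on, scored 0.60. This was the largest of the 219 differences, at 2.34. The next were 2.25 between the domain starting at 19286655 (0.62) and the one starting at 19349148 (2.87), and 2.25 between those starting at 1474888 (0.66) and 1545878 (2.92).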
